A study of Homo sapiens with 2 samples.

Results

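The genes described here are TGFBR1, TGFBR2, SMAD3, THBS1, CCN1, CCN2, TEAD1, YAP1 and ZYX, 9 of the 20037 protein-coding genes of RefSeq on GRCh38. For each gene, every interval called inside it or within 200 kb of either end was taken from both deposited peak lists. This gave 33 of 16284 intervals in the siNEG library and 11 of 6370 in the siEWS-FLI library, and no interval belonged to more than 1 of the 9 genes. The genes are grouped under a name that calls them repressed; peak lists hold no expression values, so that name was not checked here.

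The series, on ATR inhibitor and cisplatin synergy, mapped EWS-FLI by CUT&Tag in TC32, a long-established line from Ewing sarcoma. EWS-FLI joins EWSR1 to the ETS factor FLI1, and in CUT&Tag an antibody directs a transposase to the DNA near its target. There was 1 library of TC32 cells given siEWS-FLI and 1 of TC32 cells given siNEG, which the labels do not spell out and which is set beside siEWS-FLI here. With 1 library in each group no difference below has a replicate check, no test was run, and intervals cover counting error only. The labels do not name the antibody, and the level of the fusion was not measured by these data.

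TGF-beta ligands bind a type II receptor, encoded by TGFBR2, which activates the type I receptor, encoded by TGFBR1. The type I receptor phosphorylates SMAD3, which then acts with SMAD4 on DNA. YAP1 is a transcriptional coactivator held in check by the Hippo kinases, and TEAD1 is one of the DNA-binding proteins through which it works. CCN1 and CCN2 are matricellular proteins and standard YAP targets, THBS1 is a matrix glycoprotein that can activate latent TGF-beta, and ZYX (zyxin) is a LIM-domain protein of focal adhesions and actin stress fibres. In Ewing sarcoma these pathways are known for links to adhesion, migration and the mesenchymal side of the cells.

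The 250 bases before a start site are shown for 3 genes whose start lay in or beside a siNEG interval, TGFBR2, TGFBR1 and ZYX, and for 2 genes with no site there, CCN2 and THBS1. They come from RefSeq, GRCh38.p14, run 5′ to 3′ on the gene's strand, and have in capitals the letters GGAA or the reverse complement TTCC, the core of ETS binding sites. Positions are negative and counted back from the start site.
TGFBR2, chr3:30606351-30606600, + strand: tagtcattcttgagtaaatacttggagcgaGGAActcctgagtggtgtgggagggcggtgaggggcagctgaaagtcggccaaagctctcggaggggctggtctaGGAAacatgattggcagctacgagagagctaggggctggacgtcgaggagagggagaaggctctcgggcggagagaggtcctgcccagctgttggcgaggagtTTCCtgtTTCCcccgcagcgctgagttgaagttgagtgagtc
TGFBR1, chr9:99104442-99104691, + strand: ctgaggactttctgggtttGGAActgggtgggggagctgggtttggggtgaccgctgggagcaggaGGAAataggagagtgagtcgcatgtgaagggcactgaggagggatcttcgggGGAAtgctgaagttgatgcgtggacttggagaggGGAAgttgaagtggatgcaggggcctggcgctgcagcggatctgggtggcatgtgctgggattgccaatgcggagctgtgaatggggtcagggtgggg
ZYX, chr7:143381095-143381344, + strand: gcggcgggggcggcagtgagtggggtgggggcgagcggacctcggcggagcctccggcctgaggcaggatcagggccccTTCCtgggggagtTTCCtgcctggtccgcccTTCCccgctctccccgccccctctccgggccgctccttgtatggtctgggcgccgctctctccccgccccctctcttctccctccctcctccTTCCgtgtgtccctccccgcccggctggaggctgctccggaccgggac
CCN2, chr6:131951373-131951622, - strand: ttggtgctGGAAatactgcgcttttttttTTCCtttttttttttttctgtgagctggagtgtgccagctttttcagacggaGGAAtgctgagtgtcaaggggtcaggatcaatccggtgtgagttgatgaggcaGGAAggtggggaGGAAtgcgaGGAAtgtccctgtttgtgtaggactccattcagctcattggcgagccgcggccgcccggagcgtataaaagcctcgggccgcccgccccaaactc
THBS1, chr15:39580829-39581078, + strand: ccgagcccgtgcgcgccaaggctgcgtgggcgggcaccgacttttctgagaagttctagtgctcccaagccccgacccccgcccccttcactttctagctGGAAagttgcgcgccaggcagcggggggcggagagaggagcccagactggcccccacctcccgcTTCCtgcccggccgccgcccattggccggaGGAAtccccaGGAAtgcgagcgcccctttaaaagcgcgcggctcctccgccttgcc

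Matches to GGAA do not set these promoters apart. On either strand GGAA was present in 92.7% of 35116 RefSeq promoter windows of this length, with a median of 3 matches. It was present in 15 of the 19 windows listed for 7 of the 9 genes. There were 4 matches each in the shown windows of TGFBR2, TGFBR1, ZYX and THBS1 and 6 in that of CCN2. The TGFBR1 windows before starts 99105083 and 99105113, which overlap the same siNEG interval as the shown window, had 0. GGAATG, which contains GGAA and is the core recognised by TEAD factors, was present in 11.9% of all windows and in 4 of the 19. It occurred 3 times before the CCN2 start, at -169, -104 and -95, and once each before the shown starts of THBS1 (-46) and TGFBR1 (-132) and before that of YAP1 (-162). The shown windows of TGFBR2 and ZYX had no GGAATG. GGAAGGAA, a run of a pair of ETS cores, was present in 3.06% of all windows and in 2 of the 19, before the YAP1 start and 1 other TGFBR1 start. An uninterrupted run of 3 GGAA units, the start of a GGAA microsatellite, was present in 0.0712% and before no listed start of the 7 genes in the promoter table. TGANTCA, the AP-1 core, was present in 6.57% of all windows and in 1 of the 19, before a SMAD3 start. CAGACA, which contains the SMAD-binding letters CAGA, was present in 13.6% of all windows and in 3 of the 19, before starts of SMAD3 and TGFBR1. A match is a description of letters and not a bound site.

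Of the 19 RefSeq promoter windows of 7 of the genes (250 bases before to 50 after a start), 6 overlapped a siNEG interval, those of TGFBR1, TGFBR2 and ZYX, against 21.7% of all windows. Nearby starts shared an interval, so the 6 windows stand for a single siNEG interval at each of 3 genes. TGFBR1 alone supplied 8 of the 19 windows. None overlapped a siEWS-FLI interval, against 6.96%.

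All 9 genes had at least 1 siNEG site in the window, against 90.9% of all protein-coding genes, and 6 had a siEWS-FLI site, against 74%. In the siNEG library the number of sites per gene ran from 1 for THBS1 and CCN2 to 7 for TEAD1, with a median of 3 against 4 over all genes. In the siEWS-FLI library it ran from 0 for TGFBR2, CCN2 and ZYX to 3 for SMAD3 and TEAD1, with a median of 1 in the 9 genes and over all genes. The windows of the 9 genes held few other genes: a median of 4 other gene ends against 11 over all genes, with 22 for ZYX and 10 for YAP1 as the highest. Among the 4499 genes with 2 to 6 other gene ends in the window, the range of the other 7 listed genes, 85.7% had a siNEG site and 58.5% a siEWS-FLI site. Those 7 genes all had a siNEG site, and all but TGFBR2 and CCN2 had a siEWS-FLI site. The 9 genes thus differed little from the background in how many had a site.

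**Figure D1:**
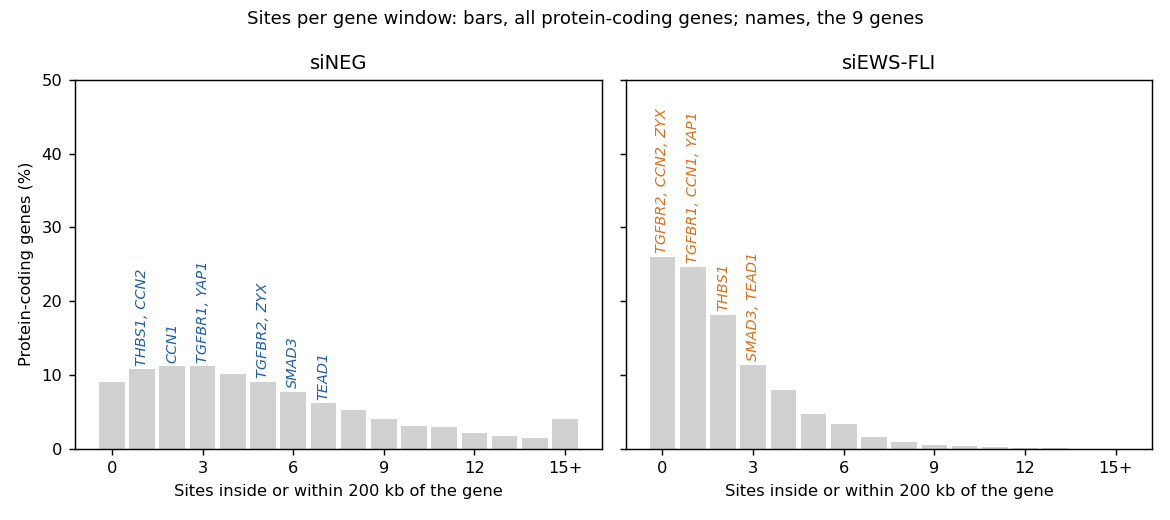
Number of called sites inside or within 200 kb of a gene (x axis) against the percentage of protein-coding genes (y axis), siNEG left and siEWS-FLI right. Grey bars are all 20037 genes, with 15 or more pooled, and the 9 genes are named above the bar of their own count, between 1 and 7 with siNEG and between 0 and 3 with siEWS-FLI.

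Most of the sites were weak. Strength is given here as the summit pileup, the depth of extended reads at the summit, which was computed from the deposited values and is not scaled between libraries. The 33 siNEG sites had 5 to 47 reads with a median of 7, against 8 over all siNEG intervals. The 11 siEWS-FLI sites had 4 to 16 reads with a median of 5, as over the whole list. Only the site in the THBS1 window was above 16 reads with siNEG. Of the 33 siNEG sites 9 were 200 bases wide, the narrowest width listed (27.3% against 31.4% of the whole list), and of the 11 siEWS-FLI sites 9 were (81.8% against 71.4%). Averaged over the genome, background depth was 0.348 in the siNEG library and 0.239 in the siEWS-FLI library (ratio 0.687, all reads of a library included), so the lists were not made at equal depth.

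Near the genes themselves only siNEG sites were called. Of the 33 siNEG summits 12 lay inside a listed gene and 20 inside or within 50 kb, around 7 of the 9 genes; CCN2 and THBS1 had none that close. Of the 11 siEWS-FLI summits 0 lay inside a listed gene or within 50 kb, and the closest was 59.3 kb away, beyond SMAD3. Over all protein-coding genes 73.3% had a siNEG interval and 46.1% a siEWS-FLI interval inside or within 50 kb. A retained siNEG interval, meaning one overlapped by a siEWS-FLI interval, lay that close to 0 of the 9 genes and to 30.2% of all genes. For the genes with 2 to 6 other gene ends in the 200 kb window the share with a siEWS-FLI interval was 32.1%.

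**Figure D2:**
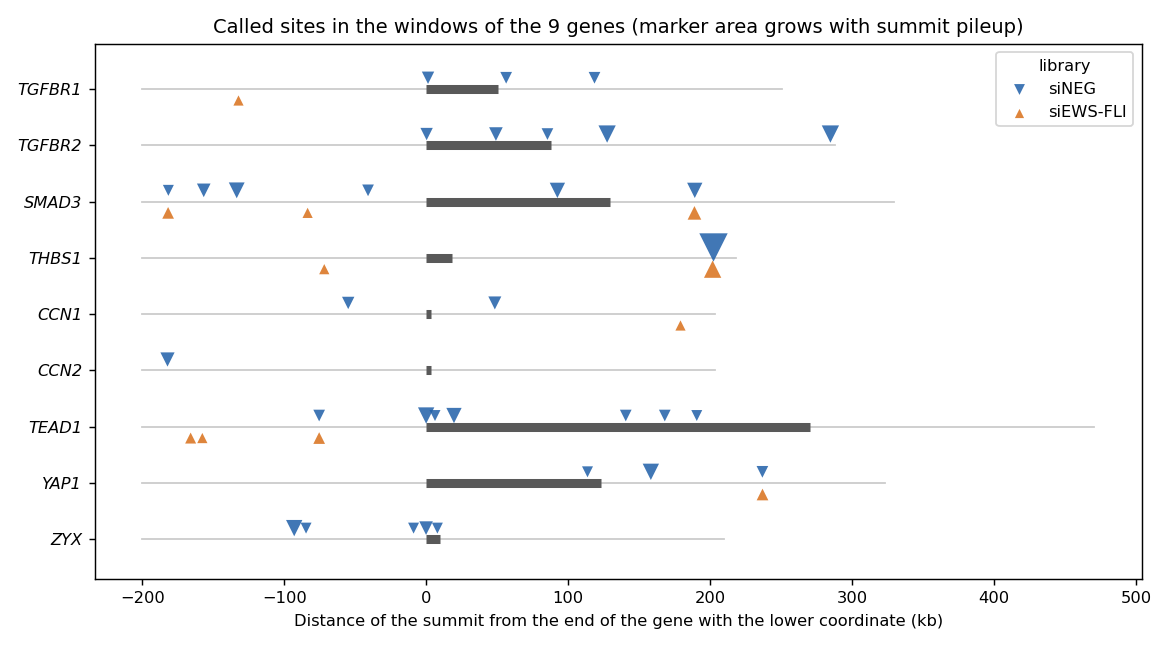
Position of each called summit in kb from the end of the gene with the lower coordinate (x axis), with 1 row per gene. The thick bar is the gene, the thin line the window of 200 kb on either side, blue triangles siNEG and orange triangles siEWS-FLI summits, with an area that grows with the pileup; all 11 orange triangles lie off the gene bars.

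At the genes' own ends, meaning a summit within 1 kb of either end, 3 of the 9 genes had a siNEG site (34.1% of all genes) and 0 had a siEWS-FLI site (12.3% of all genes). At TEAD1 the siNEG site (chromosome 11, 12674165 to 12674650) had 14 reads (95% interval 7.65 to 23.5) and its summit lay 144 bases outside the end of the gene. At ZYX (chromosome 7, 143380884 to 143381316) it had 9 reads (4.12 to 17.1), 200 bases before the start, inside FAM131B and 120 bases from the end of the lncRNA gene FAM131B-AS2. At TGFBR2 (chromosome 3, 30606401 to 30606687) it had 7 reads (2.81 to 14.4), 185 bases inside the gene and 60 bases before the RefSeq start shown above, in a stretch that LOC105377015 also covers. None of the 3 overlapped a siEWS-FLI interval. Over all siNEG intervals at gene ends 28.2% did, and over those with 7 to 14 reads, the range of these 3 sites, 13% did.

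TGFBR1 would join this group under a looser definition. Its siNEG site (chromosome 9, 99104545 to 99104964) had 7 reads (2.81 to 14.4) at a summit 1180 bases inside the gene, but 135 bases after the RefSeq start shown above, 1 of 8 listed for the gene. SMAD3, with 5 listed starts, had its nearest siNEG summit 8612 bases from any of them. No siNEG summit lay within 100 kb of the listed starts of YAP1, THBS1 or CCN2, and for CCN1 the nearest was 45.0 kb from the gene.

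An uncalled site is not an empty one, and the threshold sets how low a pileup could be seen. If the siNEG local background held, siEWS-FLI pileups as high as 5 reads at TEAD1 and ZYX, 4 at TGFBR1 and 3 at TGFBR2 would not have been called. The siEWS-FLI local background is not listed at uncalled sites. At the average background of that library the limit was 3 reads at each site. Calls under a limit from the siNEG local background did occur: at STK4 it was 15 reads, and a siEWS-FLI site of 6 reads was called. Of the 29 siNEG sites with no overlapping siEWS-FLI interval, 28 had a pileup that, multiplied by 0.687, exceeded the limit at the siNEG local background, 10 of them by more than 2 reads. These sites were selected by being called with siNEG, at 5 reads or more, and the limits ran from 3 to 6 reads. Most were therefore bound to exceed the limit. Whether depth accounts for the missing calls was not tested. When the lower bound of the pileup was multiplied instead, the same limit was exceeded at 5 sites: both sites inside GADL1 in the TGFBR2 window, the gene-end site of TEAD1, and sites of YAP1 and ZYX described below. The same counts were not made over all siNEG intervals without a siEWS-FLI overlap, so they are not a result particular to these genes.

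Around the receptor genes, sites near the gene were called with siNEG alone. TGFBR1 had 2 further siNEG sites of 6 reads each, 5.68 kb beyond the gene and 159 bases from the end of ALG2, a mannosyltransferase of N-glycosylation. Its single siEWS-FLI site had 4 reads, 132 kb away inside the collagen gene COL15A1. TGFBR2 had siNEG sites of 9 and 6 reads inside the gene, the latter 2477 bases from its far end. Its strongest sites lay inside the neighbouring gene GADL1, at chromosome 3, 30733359 to 30733934 and 30890797 to 30891197, with 16 reads each (9.15 to 26.0), at 39.6 kb and 197 kb. No siEWS-FLI interval was called in the TGFBR2 window. If the siNEG local background held, up to 6 and 4 reads would have stayed uncalled at the GADL1 sites.

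SMAD3, the signal transducer, had 6 siNEG and 3 siEWS-FLI sites. Inside the gene a siNEG site (chromosome 15, 67157712 to 67158159) had 12 reads (6.20 to 21.0). The strongest siNEG site in the window had 13 reads (6.92 to 22.2), 134 kb away and 480 bases from the end of the lncRNA gene SMASR. Neither had a siEWS-FLI call. Sites of 5, 9 and 6 reads lay 182, 157 and 41.1 kb from the gene, the first pair closer to SMAD6, an inhibitory SMAD. A siEWS-FLI site of 6 reads lay 9 bases from the siNEG site of 5 reads without overlapping it, and another of 4 reads lay 83.6 kb from SMAD3.

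At 59.5 kb from SMAD3 the libraries shared a site inside AAGAB, with summits 96 (siNEG) and 322 bases (siEWS-FLI) from the end of IQCH. The siNEG interval (67254541 to 67254977) had 12 reads (6.20 to 21.0) at a summit 29 bases from the AAGAB start, and the siEWS-FLI interval (67254332 to 67254590) had 9 (4.12 to 17.1). The intervals overlapped by 50 bases and their summits were 226 bases apart. The siEWS-FLI pileup over the siNEG pileup was 0.75 (0.279 to 1.94), against a median of 0.5 over 672 shared intervals with 10 to 19 siNEG reads. A shared site needs a siEWS-FLI call, of 4 reads at least, so low ratios cannot occur at weak siNEG sites. Such ratios are therefore not comparable between sites of different siNEG strength.

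Among the matrix genes, THBS1 had the strongest site of the whole set and no site near the gene. The siNEG interval (chromosome 15, 39782488 to 39782985) had 47 reads (34.5 to 62.5), with a deposited fold enrichment of 17.1, and stood at rank 780 of 16284 by the deposited -log10 q. The siEWS-FLI interval (39782595 to 39782912) lay wholly inside it with 16 reads (9.15 to 26.0), at rank 159 of 6370. The summits were 31 bases apart, 183 kb from THBS1 and at the start of FSIP1, 122 and 91 bases from it. The ratio was 0.340 (0.180 to 0.611), against a median of 0.267 and quartiles of 0.2 and 0.35 over 861 shared intervals with 20 to 49 siNEG reads. The pileup at this site was thus lower with siEWS-FLI, by an amount inside the quartiles of shared sites of like siNEG strength. The interval of the ratio ended below 0.687, the ratio between the libraries' backgrounds. It covers counting error only and treats reads as independent, while duplicate handling is not stated. With 1 library in each group the difference was not tested. The other siEWS-FLI site in the window had 4 reads at 71.9 kb.

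CCN1 and CCN2, the YAP target genes, had few sites and none at the gene. CCN1 had 7 siNEG reads (2.81 to 14.4) at a site inside DDAH1, 55.0 kb away (chromosome 1, 85525563 to 85525829). It had 8 (3.45 to 15.8) at a site 45.0 kb away (85628813 to 85629390), whose summit was 727 bases from the end of the lncRNA gene LOC112268231. Its siEWS-FLI site had 4 reads, 176 kb away inside the collagen gene COL24A1. CCN2 had 1 siNEG site of 10 reads (4.80 to 18.4) on chromosome 6 (131765273 to 131765509), 183 kb away and 18.0 kb from ENPP3, and no siEWS-FLI site. The promoter of CCN2, with its 3 GGAATG matches, had no called interval in either library.

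TEAD1, the DNA-binding partner of YAP1, had the most siNEG sites, 7 in a window of 670 kb, the longest of the 9. Inside the gene there were 5, with 12 reads (6.20 to 21.0) at the strongest (chromosome 11, 12693650 to 12694034) and 5, 6, 6 and 5 at the others. None of these overlapped a siEWS-FLI interval. The window's remaining siNEG site, 75.5 kb away between genes (12598520 to 12598989), did. It had 6 reads (2.2 to 13.1) in each library, with summits 10 bases apart and an overlap of 166 bases. The ratio of 1 had an interval of 0.267 to 3.74, against a median of 0.857 over 335 shared intervals with 4 to 9 siNEG reads. In this class the need for a siEWS-FLI call keeps low ratios out. At 5 and 4 reads, siEWS-FLI sites also lay inside PARVA, which encodes the focal adhesion protein alpha-parvin, 166 and 158 kb away.

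YAP1, the coactivator, had 3 siNEG sites. Inside the gene, 9.45 kb from its end, 5 reads were listed. The strongest site (chromosome 11, 102268456 to 102268704) had 14 reads (7.65 to 23.5) between genes, 35.2 kb away. It was not called with siEWS-FLI, where up to 4 reads would have stayed uncalled if the siNEG local background held. The site shared between the libraries lay 114 kb away at the start of BIRC2, the gene of an inhibitor of apoptosis. The siNEG interval (102346995 to 102347377) had 6 reads (2.2 to 13.1), as did the siEWS-FLI interval (102346820 to 102347019), but they overlapped by 25 bases and the summits were 167 bases apart.

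ZYX, the focal adhesion gene, lay in the most crowded window and had 5 siNEG sites and no siEWS-FLI site. Apart from the start site described above, the strongest had 14 reads (7.65 to 23.5), 93.1 kb away and 92 bases from the start of CASP2, the gene of caspase-2 (chromosome 7, 143288102 to 143288564). The other 3 had 5 reads each and were 200 bases wide. They lay inside CASP2, inside FAM131B, and inside ZYX 1993 bases from its end.

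**Figure D3:**
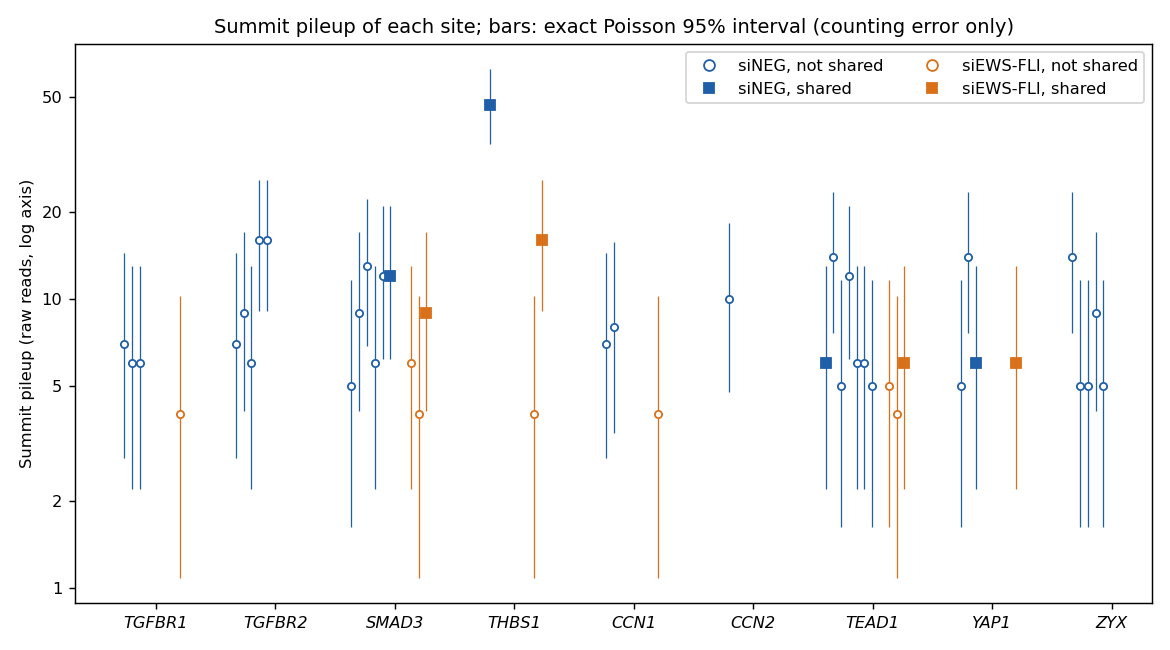
Summit pileup in raw reads (y axis, log scale) of each site by gene (x axis), with the exact Poisson 95% interval as a bar. Filled squares are sites that overlap between the libraries and open circles sites that do not; the THBS1 squares, at 47 and 16 reads, are the only sites above 14 reads apart from the pair of siNEG sites at 16 for TGFBR2.

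In all, 4 of the 33 siNEG sites overlapped a siEWS-FLI interval (12.1%, Wilson 95% interval 4.82 to 27.3), against 15.6% of all siNEG intervals. They belonged to 4 of the 9 genes, SMAD3, THBS1, TEAD1 and YAP1, against 51.9% of all genes. Among the 7 listed genes with 2 to 6 other gene ends in the window, SMAD3, THBS1 and TEAD1 had one, against 25.6% of all such genes. None of the 4 shared sites was closer than 59.5 kb to the listed gene, and the listed gene was the nearest gene to none of them. At the end of any protein-coding gene lay 8 of the 33 siNEG sites (36.2% of the whole list) and 3 of the 11 siEWS-FLI sites (31.7%). At the end of another gene, 3 of 5 siNEG sites were shared, those of FSIP1, IQCH and BIRC2, while those of ALG2 and CASP2 were not. With the own-end sites this made 3 of 8 at gene ends (37.5%), against 28.2% of all siNEG intervals there. Away from any gene end 1 of 25 was shared (4%), against 8.47% of all such intervals and 5.72% of those with 5 to 16 reads. By strength, 2 of the 16 sites with a deposited -log10 q under 5 were shared, 0 of 9 from 5 to 10, 1 of 7 from 10 to 20, and the 1 above 20, against 3.42%, 10.1%, 24.5% and 58.8% of all intervals.

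Of the 11 siEWS-FLI sites 4 overlapped a siNEG interval (36.4%), against 41.1% of the whole list. The 7 that did not were all 200 bases wide. Of these, 5 had 4 reads, the smallest pileup called, 1 had 5 and 1 had 6. Intervals of 4 reads made up 42.0% of the whole siEWS-FLI list. None of the 7 lay at the end of a protein-coding gene.

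Other genes of the same pathways were counted in the same way, in lists drawn up from knowledge of the pathways. Of 18 TGF-beta genes, 18 had a siNEG and 16 a siEWS-FLI site within 200 kb, and 14 a shared site, where all genes gave 90.9%, 74% and 51.9%. Within 1 kb of an end the counts were 10, 4 and 3, where all genes gave 34.1%, 12.3% and 10.7%. SKI, a SMAD corepressor, shared a site of 69 siNEG (53.7 to 87.3) and 7 siEWS-FLI reads (2.81 to 14.4). SMURF1, a ubiquitin ligase of the pathway, shared one of 25 (16.2 to 36.9) and 8 (3.45 to 15.8), and BMPR2, a type II receptor of the BMP branch, one of 7 and 7. ACVR1, a type I receptor, had 19 siNEG reads (11.4 to 29.7) and no siEWS-FLI site at its end.

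Of 18 Hippo-YAP genes, 17 had a siNEG site, 16 a siEWS-FLI site and 11 a shared site within 200 kb, and 6, 3 and 2 had them within 1 kb of an end. The latter shares, 33.3%, 16.7% and 11.1%, stood beside 34.1%, 12.3% and 10.7% of all genes, and those at 200 kb, 94.4%, 88.9% and 61.1%, beside 90.9%, 74% and 51.9%. STK4, a Hippo kinase, shared a site of 141 siNEG (119 to 166) and 6 siEWS-FLI reads (2.2 to 13.1). NF2, the gene of merlin, shared one of 22 (13.8 to 33.3) and 6. LATS1, the kinase that phosphorylates YAP1, had 8 siNEG reads (3.45 to 15.8) at its end, a site not called with siEWS-FLI, whose own site of 6 reads there lay at another position.

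Of 22 actin and focal adhesion genes, 22 had a siNEG site, 19 a siEWS-FLI site and 16 a shared site within 200 kb, and 12, 6 and 6 had them within 1 kb of an end. All genes gave 90.9%, 74% and 51.9% at 200 kb, and 34.1%, 12.3% and 10.7% at 1 kb. TLN1, the gene of talin, shared a site of 76 siNEG (59.9 to 95.1) and 10 siEWS-FLI reads (4.80 to 18.4). MRTFA, an actin-regulated coactivator of SRF, shared one of 58 (44.0 to 75.0) and 7, VCL, the gene of vinculin, one of 27 (17.8 to 39.3) and 5, and RHOA one of 48 (35.4 to 63.6) and 8, closer to the end of GPX1. ACTB had 158 siNEG reads at its end and no siEWS-FLI call there. The 9 genes had at most 14 siNEG reads at an own end, as did 14 of the 28 genes of the 3 lists with an end site: 6 of 10 TGF-beta, 4 of 6 Hippo-YAP and 4 of 12 actin and focal adhesion genes. Differences between lists were not tested.

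**Figure D4:**
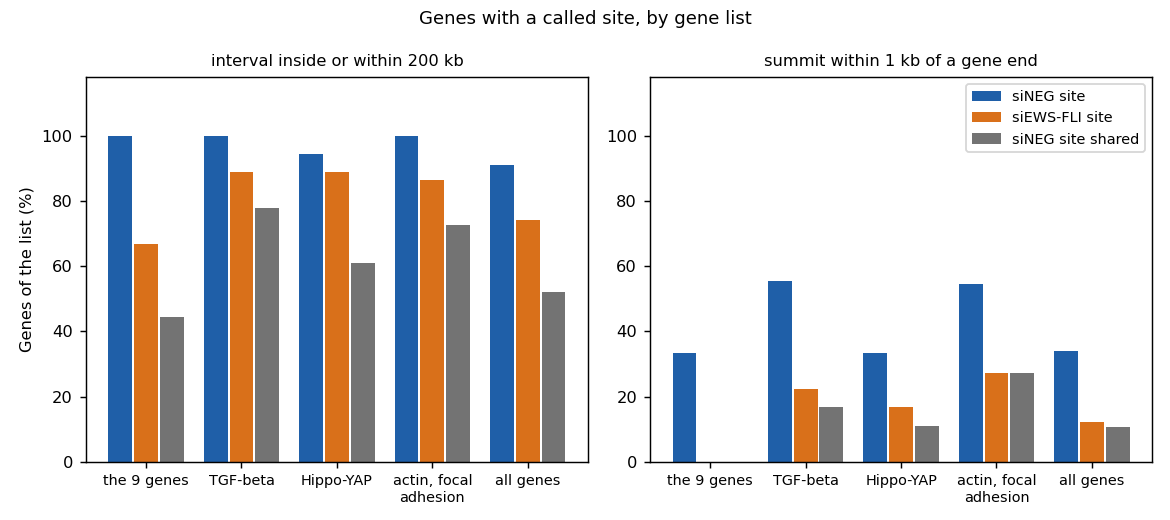
Percentage of the genes of each list (y axis) with a siNEG site, a siEWS-FLI site, or a siNEG site shared with siEWS-FLI, inside or within 200 kb (left) and within 1 kb of a gene end (right). The 9 genes stand at 33.3%, 0% and 0% on the right, and all protein-coding genes at 34.1%, 12.3% and 10.7%.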

How the data were processed

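CUT&Tag libraries of TC32 cells given siEWS-FLI or siNEG, 1 each, were amplified by 14 and then 20 PCR cycles, per the labels' protocols. The submitters' processing notes name hg38, MACS2 2.2.9.1, Bowtie2 2.4.5 and Trim Galore 0.6.6 without roles; the control, duplicate handling and fragment length are not stated there. The authors deposited a peak list per library, with the fold enrichment at the summit as a linear ratio, −log10 p-values and −log10 q-values; the deposited score was not used. Lines sharing an interval were merged, the highest −log10 q kept, on chromosomes 1 to 22, X and Y.

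The summit pileup was solved from the deposited fold, read as a ratio with a pseudocount of 1 on pileup and background, and the Poisson upper tail; a whole pileup solved 100% of lines within 0.001 in log10 p, in proportion above 10. On 4949 simulated peaks 100% were recovered. Depth was not given as read totals. The limit for an uncalled site is the largest pileup missing the weakest p of the other list at the site's background. Shared means an overlap of at least 1 base. Genes, starts and sequences came from RefSeq GRCh38.p14; 7 of the 9 genes matched the promoter table (not CCN1 and TEAD1). The 9 genes, the 3 lists, and the rule for named genes (each member's strongest siNEG site at an own end and elsewhere, every shared site, the strongest siEWS-FLI-only site, and per list the 3 strongest and up to 4 shared gene-end sites) were chosen with earlier results of these data known. ACTN1 and SRF were named in addition to that rule. Results were recomputed under 10 other settings, and under 2 chosen after seeing the data. Python 3.11.15, pandas 2.3.3 and scipy 1.17.1 were used.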

Additional observations from a re-analysis of the deposited data

How the results depend on the processing

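With the window at 50 kb there were 20 siNEG and 0 siEWS-FLI sites, so 0% of siNEG sites and 0 genes were retained; at 100 kb there were 4 siEWS-FLI sites and 2 genes with a retained site. At −log10 q of at least 5 there were 17 siNEG and 2 siEWS-FLI sites and 2 such genes. Without intervals of 200 bases there were 2 siEWS-FLI sites and 2 such genes. With only sites nearest to the listed gene there were 17 siNEG and 1 siEWS-FLI sites, and 0% of sites and 0 genes were retained. Reciprocal overlap of 50% left 3.03% of sites, that of THBS1 alone, and 1 gene. Leaving out sites at other gene ends, chosen after seeing the data, left 3.57%. Gene ends at 2.5 kb gave 6 own-end siNEG sites. The other settings stayed within 1.5 times the count or inside the interval of the share. No paired analysis was possible because there is 1 library per group and no test. Pileups of 4 to 16 reads limit the precision of every site but that of THBS1 with siNEG.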
